A study of Mus musculus with 19 samples.

Results

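The genes described here are 35 genes of glycolysis and of the response to low oxygen, taken by name from a table of 26796 genes measured in mouse mammary tumours. All 35 were found in the table through their Ensembl identifiers and all 35 passed the filter on low counts. Aldoa matched several identifiers, and only the identifier with the highest summed count was used. They comprise 4 transporters of glucose and lactate (Slc2a1, Slc2a3, Slc16a1, Slc16a3), 14 glycolytic enzymes (Hk1, Hk2, Gpi1, Pfkl, Pfkp, Aldoa, Aldoc, Tpi1, Gapdh, Pgk1, Pgam1, Eno1, Pkm, Ldha) and 2 regulators of phosphofructokinase (Pfkfb3, Pfkfb4), together called the glycolytic group of 20. The other genes are 2 subunits of hypoxia-inducible factor (Hif1a, Epas1), 2 prolyl hydroxylases (Egln1, Egln3) and 11 other hypoxia targets (Bnip3, Bnip3l, Car9, Adm, Ndrg1, P4ha1, P4ha2, Ankrd37, Kdm3a, Ero1l, Ddit4). The hydroxylases and the other targets form the hypoxia target group of 13.

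RNA was sequenced from 19 whole Met1 tumours. Met1 is a transplantable mouse mammary tumour line that came from an animal with a polyoma middle T transgene under a mammary tumour virus promoter. All tumour-bearing mice received extracellular vesicles, small membrane particles released by cells, from neutrophils, and the groups differ in what those neutrophils had been exposed to: the solvent DMSO for 9 tumours, or 27-hydroxycholesterol (27HC), an oxidised product of cholesterol, for 10 tumours. The labels and design text name neither strain, age nor sex of the host mice, nor dose, route or duration of the vesicle treatment, and tumours without vesicles were not analysed here. Each title carries a pair of numbers, the first of which is 1 (5 DMSO and 5 27HC tumours) or 2 (4 DMSO and 5 27HC tumours) and has no stated meaning. Nothing in the labels says whether tumours came from separate mice, so p-values measure the spread between these samples, which may be technical.

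Glycolysis splits glucose into pyruvate in the cytosol, and lactate dehydrogenase turns pyruvate into lactate, which leaves the cell through monocarboxylate transporters. Hypoxia-inducible factor (HIF) is a pair of an oxygen-labile alpha subunit and a stable partner. With oxygen, prolyl hydroxylases mark the alpha subunit for destruction, and without it the pair binds the short sequences ACGTG or GCGTG near its target genes, among them most glycolytic enzymes. The factor is regulated mainly at the protein level, so the messenger RNA of Hif1a is not a readout of its activity. Growing mammary tumours are known for high glucose use and for poorly supplied, hypoxic areas.

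Totals ranged from 28139419 to 41179056 expected counts per tumour, and levels are given as CPM, counts scaled to a common library size. Transcripts in 5 libraries (DMSO 1_5 and 2_3, 27HC 1_3, 1_5 and 2_3) had a count-weighted mean GC content of 49.04% to 49.3%, against 50.55% to 52.26% in the other 14, and these 5 are set apart below. Of the mammary epithelial markers, Krt18 ranged from 36 to 132 CPM and Krt8 from 0.176 to 9.55 CPM, Epcam lay at 0.26 to 13.2 CPM, and Krt19 and Krt5 were at 0 in some tumours. The summed level of 18 skeletal muscle genes ran from 13.3 to 5812 CPM. In whole tumours, fewer cells of a type and less RNA per cell cannot be told apart. Reads of some enzymes are also shared with near-identical genes: of the counts on Gapdh and its 73 copies 60% lay on the copies, of those on Eno1 and 3 copies 53.6%, and of those on Pgk1 and 4 copies 1.22%. The levels of Gapdh and Eno1 are therefore uncertain.

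Promoters of 31 of the 35 genes were matched in the RefSeq promoter table of GRCm38.p6, each from 250 bases before to 50 bases after a start site, with Ero1l listed there as Ero1a. Slc2a3, Epas1, Ndrg1 and Bnip3l had no entry. ACGTG on either strand was in at least 1 promoter of 23 of the 31 genes (74.2%), against 27.7% of 11482 tested genes and 21.8% of all 27025 genes in the table. ACGTG or GCGTG was in 29 of 31 (93.5%), against 63.9% of the tested genes and 46.7% of all. All 11 matched hypoxia targets and 17 of 19 matched glycolytic genes held 1 of these motifs. Gpi1 and Tpi1 did not, which says only that these letters are not in this window. The levels of Bnip3 and Ero1l moved together between tumours, and Pgk1 and Ldha are the enzymes with the smallest p between treatments. Promoters of these 4 genes are given below. Each runs 5′ to 3′ on the gene's strand in lower case, with every ACGTG or GCGTG on either strand in capitals. A palindromic CACGTG is 1 run of capitals and counts as 2 matches. A match is a description and not evidence that the factor binds.
Bnip3, chr7:138909457-138909756, minus strand: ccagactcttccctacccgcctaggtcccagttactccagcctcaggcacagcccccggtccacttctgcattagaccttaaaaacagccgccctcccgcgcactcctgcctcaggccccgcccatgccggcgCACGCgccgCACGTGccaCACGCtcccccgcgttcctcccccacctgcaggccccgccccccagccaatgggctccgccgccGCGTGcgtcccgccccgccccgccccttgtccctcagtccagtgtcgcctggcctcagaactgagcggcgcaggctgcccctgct
Ero1l, chr14:45318523-45318822, minus strand: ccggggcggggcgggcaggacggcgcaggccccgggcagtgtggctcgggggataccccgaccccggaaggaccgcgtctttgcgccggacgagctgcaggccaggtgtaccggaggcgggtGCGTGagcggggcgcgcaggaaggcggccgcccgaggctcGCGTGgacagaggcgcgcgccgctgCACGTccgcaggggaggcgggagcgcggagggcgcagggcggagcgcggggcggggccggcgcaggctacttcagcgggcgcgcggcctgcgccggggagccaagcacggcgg
Pgk1, chrX:106186850-106187149, plus strand: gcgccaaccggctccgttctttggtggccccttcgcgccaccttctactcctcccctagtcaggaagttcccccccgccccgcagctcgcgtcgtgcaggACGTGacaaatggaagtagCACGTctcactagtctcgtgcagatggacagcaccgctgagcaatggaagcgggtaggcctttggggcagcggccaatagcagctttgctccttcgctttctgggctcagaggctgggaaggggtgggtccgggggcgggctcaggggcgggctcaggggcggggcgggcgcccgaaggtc
Ldha, chr7:46845554-46845853, plus strand: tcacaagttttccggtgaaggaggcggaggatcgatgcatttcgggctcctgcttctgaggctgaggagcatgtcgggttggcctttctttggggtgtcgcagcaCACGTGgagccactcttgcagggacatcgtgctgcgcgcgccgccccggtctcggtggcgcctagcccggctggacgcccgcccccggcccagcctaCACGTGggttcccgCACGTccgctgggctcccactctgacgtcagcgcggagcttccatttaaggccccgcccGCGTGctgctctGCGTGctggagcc
Ldha, with 7 matches in the window of this start site, had the most of the 4, and Bnip3 had 5. Bnip3, Ero1l and Ldha each held both spellings, while the Pgk1 window held 2 copies of ACGTG and no GCGTG.

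The highest levels were those of glycolytic enzymes. Per kilobase of transcript, Pkm, which makes pyruvate, stood at 2222 ± 864 CPM per kb (SD, n = 19). Gapdh followed at 2130 ± 864, then Aldoa at 1341 ± 578, Tpi1 at 1076 ± 497, Eno1 at 873 ± 440 and Ldha at 774 ± 274 CPM per kb. The SD is the spread between tumours, and the order of these 6 was not tested. The order turned with the near-identical copies: with their counts summed, Gapdh stood at 5335.6 CPM per kb, above Pkm at 2208.5, and Eno1 at 1869.6, above Aldoa. Pgk1, which yields the first ATP of the pathway, had 433 ± 85.5 CPM per kb, and Hk1 had 129 ± 39.5. Hk2, the inducible hexokinase of many tumours, was lower at 23.7 ± 6.55 CPM per kb. Among the transporters Slc2a1, the main glucose carrier of tumour cells, was highest at 106 ± 49.4, and Slc2a3 was the lowest of all 35 genes at 1.49 ± 0.35 CPM per kb. Ndrg1, a hypoxia-induced differentiation gene, led the hypoxia targets at 80.7 ± 39.2, and Adm, a vessel-dilating peptide, was lowest among them at 1.92 ± 0.69 CPM per kb. Hif1a (28.8 ± 12.1 CPM per kb) was above Epas1 (10.9 ± 3.5 CPM per kb), the alpha subunit typical of vessels and macrophages.

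**Figure D1:**
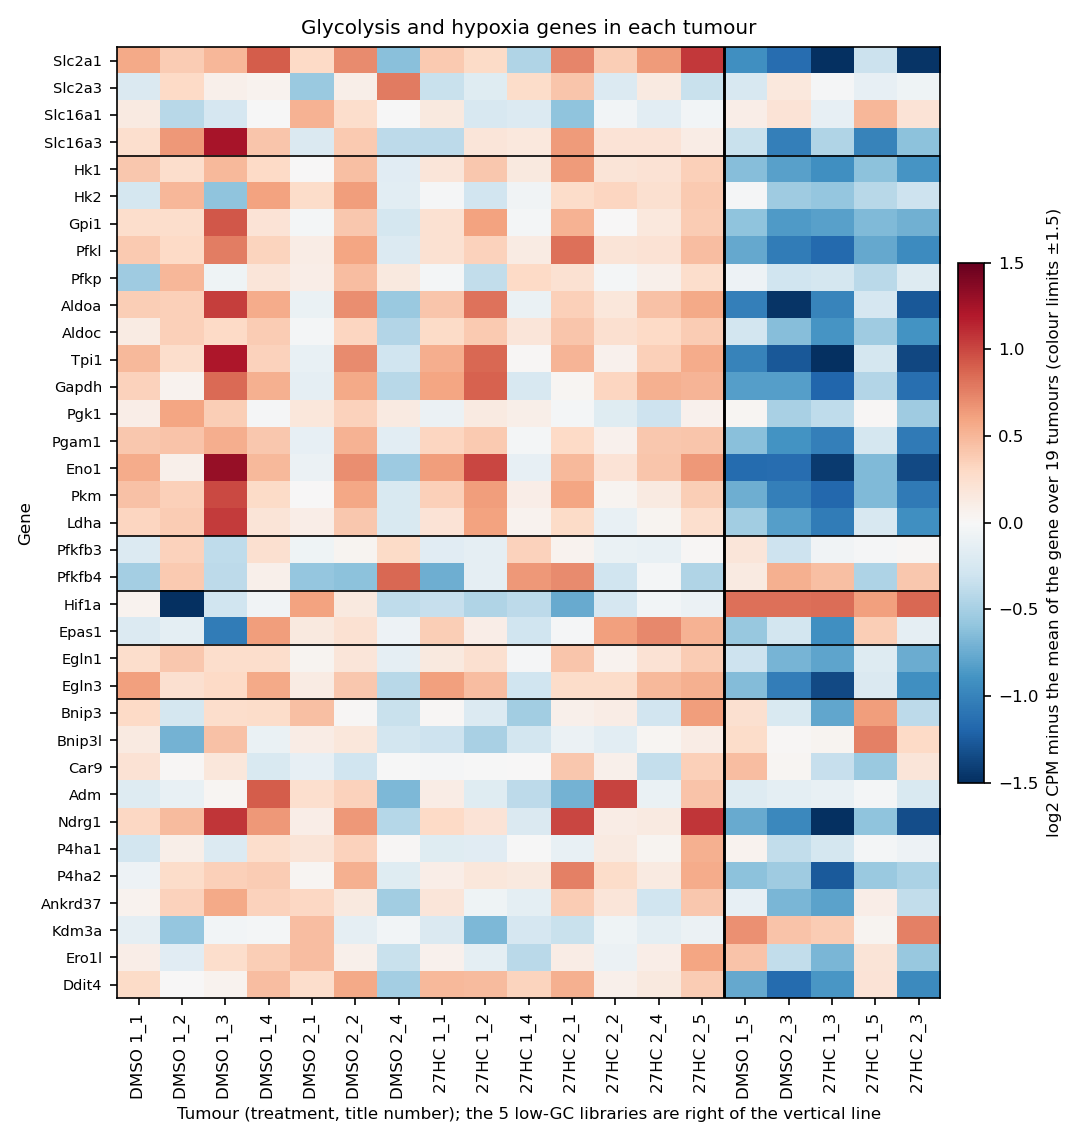
Heat map of log2 CPM of the 35 genes (rows, grouped by role from transporters at the top to other hypoxia targets at the bottom) in 19 tumours (columns), each value minus the mean of its gene. Blue is below and red above the mean: the 5 low-GC libraries at the right are mostly blue for the enzymes and red for Hif1a. Near-white enzyme cells there include Pgk1 in DMSO 1_5 and 27HC 1_5, and Hk2 and Pfkp in DMSO 1_5. DMSO 1_3 is the reddest column for the enzymes.

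The largest differences among these genes lay between the 5 low-GC libraries and the other 14. The 14 enzymes were all lower on average in the 5 low-GC libraries, with a median log2 difference of -1.05, against 0.09 for all genes tested. Averaged over the enzymes as deviation from the mean of each gene, the 5 libraries lay between -0.96 and -0.44, and the other 14 between -0.24 and 0.66 on the log2 scale. These groups of libraries do not overlap, and both hold DMSO and 27HC tumours. Summed cell cycle genes stood at 1214 to 1602 CPM in the 5 libraries and 621 to 1207 CPM in the other 14, also without overlap, and mammary epithelial genes at 45.4 to 109 and 79.9 to 146 CPM. Summed muscle genes ran from 28.6 to 5812 CPM in the 5 libraries and from 13.3 to 1742 CPM in the other 14, with overlap. Summed salivary gland genes were highest in DMSO 1_5 (6245 CPM), of the 5, and next in 27HC 2_2 (938 CPM), of the 14. The part of all these cells was not tested. Over all 35 genes 30 were lower, with a median of -0.74. For 11 of them every one of the 5 libraries was below every one of the 14, against 11.8% of all genes tested, and 11 were at least 2-fold lower, against 9.78% of all genes. The 11 without overlap were Hk1, Gpi1, Pfkl, Gapdh, Pgam1, Eno1, Pkm, Ldha, Egln1, Ndrg1 and P4ha2. With the counts of its copies summed, Gapdh did overlap (2512 to 5275 against 4961 to 13630 CPM). Only Hif1a was above without overlap, against 12.1% of all genes. The libraries were set apart by their own composition, so these values are a description with no test.

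Slc2a1 showed the largest difference, 2.97-fold lower, with 79.2 to 240 CPM in the 5 low-GC libraries and 196 to 627 CPM in the others, a small overlap. Eno1, the enolase, was 2.94-fold lower (570 to 976 against 1052 to 3804 CPM), and the same held with its copies summed (1170 to 2012 against 2299 to 8233 CPM). Tpi1, triosephosphate isomerase, was 2.82-fold lower (497 to 1274 against 1239 to 3532 CPM). Ndrg1 was 2.79-fold lower (58.5 to 134 against 152 to 431 CPM). Egln3, the hydroxylase that HIF itself induces, was 2.19-fold lower (49.7 to 110 against 94.8 to 195 CPM). In the other direction Hif1a was 2.1-fold higher (190 to 226 against 38.5 to 189 CPM), and Kdm3a, a histone demethylase induced by hypoxia, was 1.53-fold higher (110 to 181 against 67.2 to 148 CPM).

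The difference of a gene in these libraries went with the GC content of its transcript. The libraries were set apart by that content, so a trend in this direction follows from the choice. Over all genes tested the median log2 difference went from 1.02 for transcripts of 40% to 42% GC to -0.83 for those of 58% to 60%. Hif1a, at 41.3% GC, lay near the median of its class. Of the 35 genes 30 lay below the median of the genes of like GC, among them all 14 enzymes and all 4 transporters. Slc2a1, Tpi1, Gapdh, Eno1, Ldha, Egln3, Bnip3, Ndrg1 and Ero1l were in the lowest 5% of their class. Ndrg1, at 50.4% GC, differed by -1.48 where its class had a median of -0.12, and only 0.3% of that class was lower. Bnip3, a mitochondrial protein of cell death and mitophagy, and Ero1l, an oxidase of protein folding, both have transcripts of 41.6% GC, a class with a median of 1.02. They stood at -0.15 and -0.27. Pfkfb4, which makes the activator of phosphofructokinase, ran the other way at 0.29 against a class median of -0.53. No label names a difference for these libraries, but both tumours titled 1_5 and both titled 2_3 are among them. Of those titled 1_3, 27HC 1_3 is among them and DMSO 1_3, at 51.1% GC, is not. The part of GC content in the levels was not tested.

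**Figure D2:**
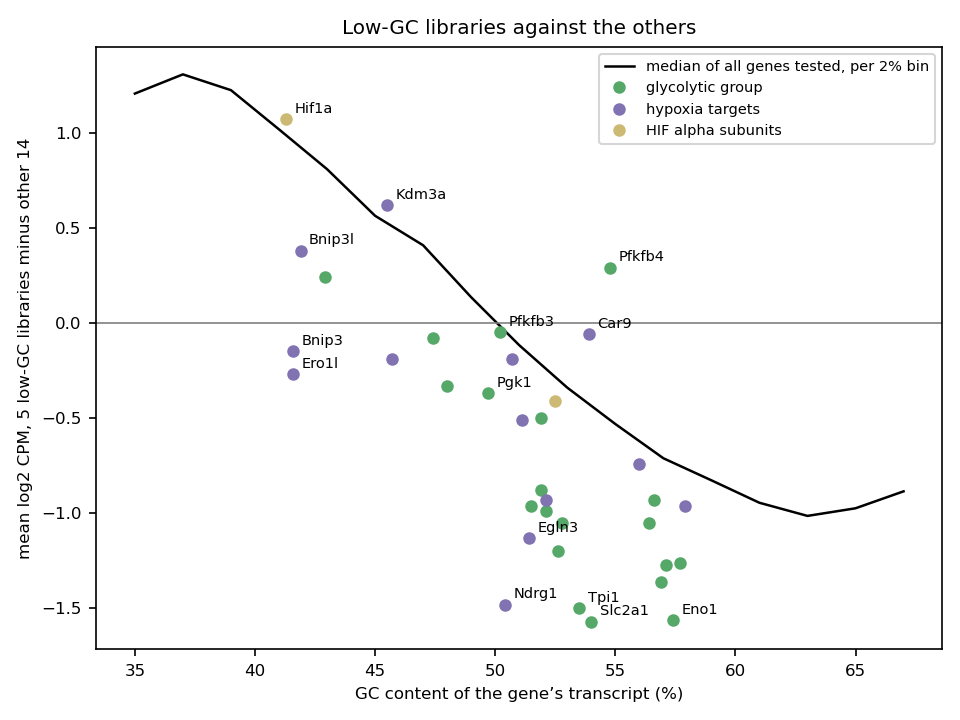
Difference in mean log2 CPM between the 5 low-GC libraries and the other 14 (vertical axis) against the GC content of the transcript in percent (horizontal axis), 1 point per gene coloured by role; the black line is the median of all genes tested in classes of 2% GC. Most points lie below the line, with Ndrg1, Tpi1, Slc2a1 and Eno1 lowest at -1.48 to -1.57, while Hif1a and Kdm3a lie near it.

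Between treatments none of the 35 genes differed beyond the spread of the tumours. In edgeR's quasi-likelihood test with Benjamini-Hochberg adjustment over 15629 genes, 0.0% of all genes and 0 of 35 members passed an adjusted p of 0.05. Without adjustment, 354 genes (2.27%) and 0 members had a p under 0.05. DESeq2 called 2 genes, neither of them a member. The fold changes were small and mostly below 0: 29 of 35 members were lower with 27HC, against 46.1% of all genes tested, and the median log2 fold change was -0.06, against 0.01 for all genes. Of the glycolytic group 17 of 20 were below 0 (median -0.08), and of the hypoxia targets 11 of 13 (median -0.04). Members move together within a tumour and so are not independent. Without tumour DMSO 1_3 the count below 0 was 21 of 35, and without the 5 low-GC libraries (7 DMSO, 7 27HC) it was 19 of 35, with a median of -0.02. For all 35 genes the 95% confidence interval of the difference lay within 2-fold in both directions, which held for 86.3% of all genes.

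**Figure D3:**
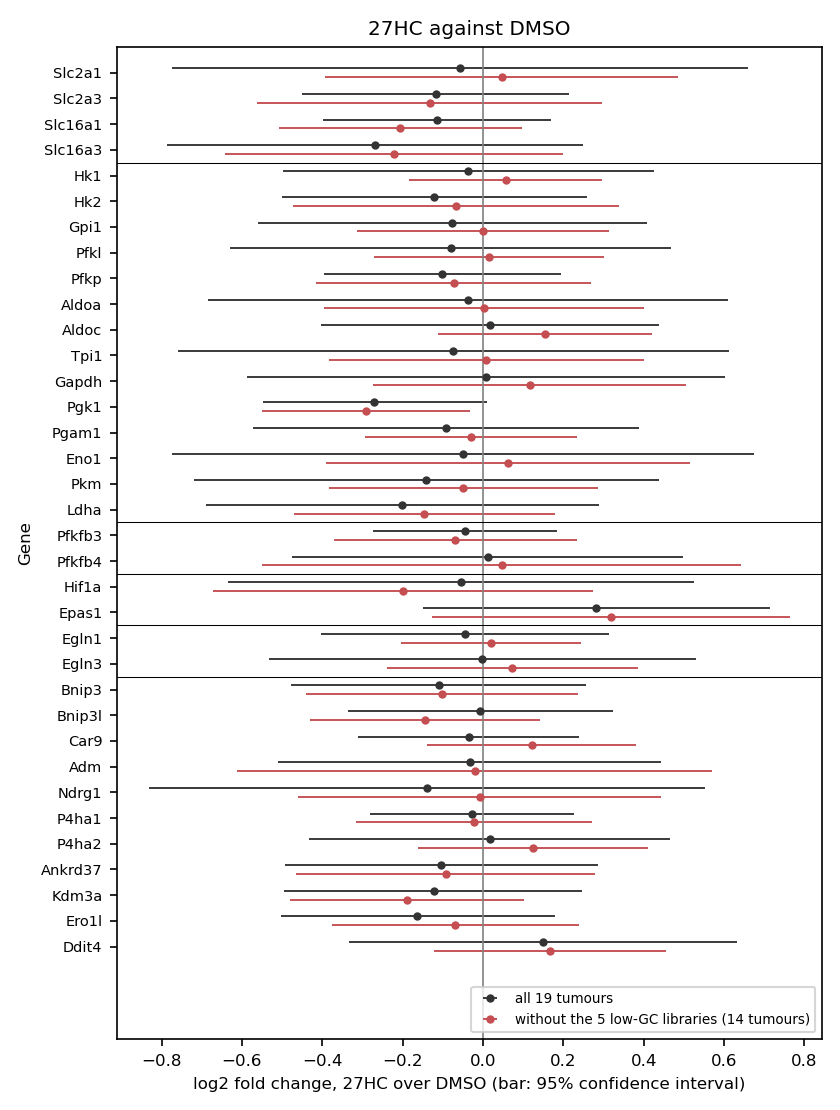
log2 fold change of 27HC over DMSO for each gene (horizontal axis) with its 95% confidence interval, from all 19 tumours (black, 9 DMSO and 10 27HC) and without the 5 low-GC libraries (red, 7 and 7). All black intervals cross 0, and the intervals of most enzymes are narrower in red; the red interval of Pgk1 runs from -0.55 to -0.03.

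Pgk1 had the smallest unadjusted p. It ranged from 554 to 1164 CPM with a median of 848 in the 9 DMSO tumours, and from 537 to 849 CPM with a median of 746 in the 10 27HC tumours. The groups overlap, but 4 DMSO tumours (1_2, 1_3, 2_1 and 2_2) were above every 27HC tumour. The log2 fold change was -0.27 (SE 0.13), with an unadjusted p of 0.057 and an adjusted p of 1 in edgeR's quasi-likelihood test. Without the 5 low-GC libraries it was -0.29 (SE 0.12), with an unadjusted p of 0.03 and an adjusted p of 0.796 in the same test, and it was -0.29 with the counts of its copies summed. The difference was of like size with and without those libraries and did not pass the adjustment over all genes.

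Ldha, the lactate-forming dehydrogenase, ranged from 725 to 2655 CPM (median 1474) with DMSO and from 619 to 1950 CPM (median 1329) with 27HC. A single tumour, DMSO 1_3, was far above the rest. The log2 fold change was -0.20 (SE 0.24, adjusted p = 1 in edgeR's test), and -0.05 without that tumour. Slc16a3, which exports lactate, ranged from 16.8 to 80.8 CPM (median 40.9) with DMSO and from 17.1 to 53.7 CPM (median 37.8) with 27HC. Here too DMSO 1_3 was highest, and the log2 fold change of -0.27 (SE 0.25) was -0.08 without it. Slc16a1, the lactate transporter that can also import, had a median of 108 CPM with DMSO and 94.9 CPM with 27HC, and a log2 fold change of -0.11 (SE 0.14), or -0.05 without DMSO 2_1 and -0.22 without 27HC 1_5.

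Epas1 had the next smallest p among the members and a higher median with 27HC. It ranged from 27.5 to 88.2 CPM (median 51.9) with DMSO and from 30.3 to 94.8 CPM (median 67.6) with 27HC, a broad overlap. The log2 fold change was 0.28 (SE 0.21), with an unadjusted p of 0.189 and an adjusted p of 1 in edgeR's quasi-likelihood test. Hif1a had medians of 129 and 111 CPM and a log2 fold change of -0.06 (SE 0.28). Its lowest value, 38.5 CPM in DMSO 1_2, was well under the next, 73.5 CPM in 27HC 2_1.

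Among the hypoxia targets Ero1l ranged from 206 to 367 CPM with DMSO and from 165 to 399 CPM with 27HC (log2 fold change -0.16, SE 0.16). Bnip3 ranged from 80.7 to 139 CPM and from 59.2 to 158 CPM (-0.11, SE 0.18). Both lie outside glycolysis, and in both the 27HC tumours spanned the DMSO range. Slc2a1 had medians of 393 and 379 CPM (-0.06, SE 0.34), and Hk2 of 125 and 123 CPM (-0.12, SE 0.18). Car9, the carbonic anhydrase widely used as a tissue marker of hypoxia, had medians of 49.1 and 48.4 CPM (-0.04, SE 0.13). The signs of Slc2a1, Car9 and Hif1a changed when single tumours were left out. Ddit4, an inhibitor of growth signalling induced by stress, was the only other member above 0 by more than 0.1, at 0.15 (SE 0.23). The other 23 genes, among them Ndrg1, P4ha1, Gapdh and Pkm, lay between -0.14 and 0.02.

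Most fold changes between treatments had opposite signs at the 2 values of the first title number, and the test of that difference passed for no gene. Among tumours with number 1 30 of 35 members were lower with 27HC (median -0.28), against 48.4% of all genes. Among those with number 2 27 of 35 were higher (median 0.21), where 49.9% of all genes were lower. In edgeR's quasi-likelihood test 0.0% of genes passed within number 1, within number 2 and for the interaction, the difference between the 2 fold changes. Without adjustment 1.38%, 2.44% and 1.43% of all genes had a p under 0.05, and 1, 0 and 2 members. The interaction was above 0 for 31 of 35 members, with a median of 0.49 against -0.02 for all genes, of which 51.4% were below 0. It was above 0 for all 14 enzymes and all 13 hypoxia targets, by a median of 0.53 and 0.49. The smallest adjusted p of any member was 0.911.

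**Figure D4:**
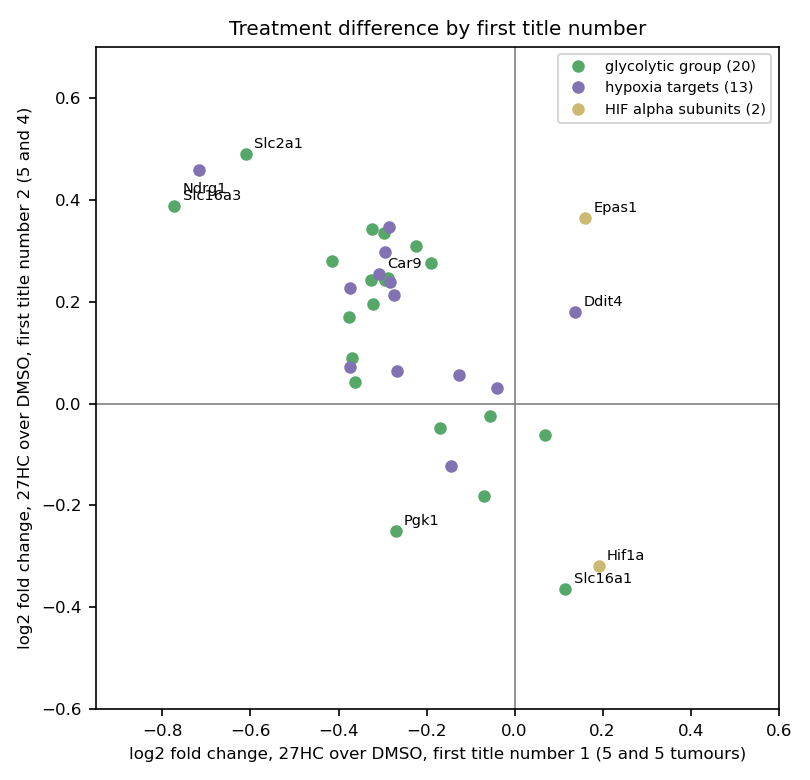
log2 fold change of 27HC over DMSO among tumours with first title number 1 (horizontal axis, 5 against 5) and number 2 (vertical axis, 5 against 4), 1 point per gene coloured by role. Most points lie in the upper left, lower with 27HC at number 1 and higher at number 2, with Slc16a3, Ndrg1 and Slc2a1 farthest out; no interaction passed the test.

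Slc16a3 had the smallest interaction p among the members. With number 1 the DMSO tumours held 40.9, 54, 80.8, 46.1 and 27.4 CPM and the 27HC tumours 26.2, 39, 25.1, 38.5 and 17.1 CPM. With number 2 the DMSO tumours held 29.6, 45.3, 16.8 and 26.1 CPM and the 27HC tumours 53.7, 39.8, 22.4, 39.7 and 37 CPM. With number 1 only DMSO 1_5, a low-GC library, fell within the 27HC range and the other DMSO tumours were above it, while with number 2 the groups overlap widely. The log2 fold change was -0.77 (SE 0.31) at number 1 and 0.39 (SE 0.33) at number 2. Their difference was 1.16 (SE 0.45, unadjusted p 0.0196, adjusted p 0.911 in edgeR's quasi-likelihood test), and 0.98 without the 5 low-GC libraries.

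Car9 had a smaller interaction with a narrower spread. With number 1 the DMSO tumours held 56.1, 49, 54.2, 41.3 and 66.5 CPM and the 27HC tumours 48, 48.3, 38.2, 48.5 and 32.8 CPM. With number 2 they held 44.4, 39.4, 49.5 and 48.1 CPM and 64.3, 51.1, 55.1, 37.9 and 61.9 CPM. In each set 1 tumour crossed over, DMSO 1_4 and 27HC 2_4. The interaction was 0.56 (SE 0.25, unadjusted p 0.0349, adjusted p 0.911 in the same test). It was 0.31 without the 5 low-GC libraries and 0.34 without DMSO 1_5 alone. Ndrg1 (1.18, SE 0.65) and Slc2a1 (1.1, SE 0.68) had interactions of the same size as Slc16a3 with wider spread, and 0.99 and 0.95 without the low-GC libraries. Slc16a1 had an interaction of -0.48 (SE 0.26), from 0.11 at number 1 to -0.36 at number 2. At number 2 the enzymes Pgk1 and Pfkp were below 0 and the other 12 above: the log2 fold change of Pgk1 was -0.27 at number 1 and -0.25 at number 2, and that of Pfkp -0.17 and -0.05.

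The medians at number 2 rested on single DMSO tumours. Without DMSO 2_3, a low-GC library in a group of 4, the median fold change of the 35 genes at number 2 was -0.02, and 20 of 35 were below 0. Without DMSO 2_2 it was 0.35. For the 13 hypoxia targets the median at number 2 was -0.02, with 7 below 0, without DMSO 2_4, which is not a low-GC library, and their interaction median was then 0.23, with 10 of 13 above 0. At number 1 the median ran from -0.38 without 27HC 1_2 to -0.12 without 27HC 1_3, and stayed below 0 without any single tumour. The interaction median ran from 0.23 to 0.64. Without all 5 low-GC libraries it was 0.31, with 26 of 35 above 0. With the mean GC content of each library as covariate it was 0.12. The low-GC libraries were unevenly spread over treatment and number: DMSO 1_5, 27HC 1_3 and 27HC 1_5, then DMSO 2_3 and 27HC 2_3. Summed muscle genes held 24.4 to 1742 CPM (DMSO) and 19.1 to 5812 CPM (27HC) at number 1, and 13.3 to 51.7 CPM (DMSO) and 13.8 to 1060 CPM (27HC) at number 2. With the muscle score as covariate the interaction median of the members was 0.62. Mammary epithelial markers had the signs of most members. All 8 of these genes had an interaction above 0 (median 1.53), with 8 of 8 below 0 at number 1 and 7 of 8 above 0 at number 2. Their summed level was 109 to 146 CPM (DMSO) and 62 to 138 CPM (27HC) at number 1, and 70 to 136 CPM (DMSO) and 45.4 to 143.5 CPM (27HC) at number 2. The interaction was also above 0 for all 5 red cell genes (median 1.46) and all 5 tested adipocyte genes (median 0.60), and below 0 for 7 of 8 cell cycle genes (median -0.25). Neutrophil, macrophage, fibroblast, T and NK cell and endothelial genes had interaction medians between -0.19 and 0.09. All 18 muscle genes were above 0 with 27HC at both numbers, with an interaction median of 1.42. The part of these cells in the values of the members was not tested.

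No difference between tumours of number 2 and number 1 passed the test in these genes. The log2 difference was above 0 for 18 and below 0 for 17 of 35 members, with a median of 0.01, where 53.2% of all genes were below 0. In edgeR's quasi-likelihood test 0.0% of genes passed, 2.46% had an unadjusted p under 0.05 and none of the members did. DESeq2 called 39 genes and no member. The smallest member p belonged to Epas1 (0.29, SE 0.20), P4ha1, a collagen prolyl hydroxylase (0.17, SE 0.12), Hk2 (0.25, SE 0.18) and Pgk1 (-0.15, SE 0.13). All 35 confidence intervals lay within 2-fold, which held for 85.7% of all genes. Among marker genes all 18 of skeletal muscle had unadjusted p under 0.05 on the lower side at number 2, with a median of -3.76, and summed levels of 19.1 to 5812 CPM at number 1 and 13.3 to 1060 CPM at number 2. With the muscle score as covariate the median of the members was -0.14. All 5 red cell genes were likewise lower at number 2 with unadjusted p under 0.05 (median -1.90, summed levels of 64.5 to 2151 and 35.4 to 282 CPM), and all 8 fibroblast genes were above 0 (median 0.25, 2 with unadjusted p under 0.05, 1922 to 3437 and 2503 to 5005 CPM). None of these markers passed the adjusted threshold in edgeR's quasi-likelihood test, and their part in the values of the members was not tested.

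Of 78 other genes of these pathways, listed by name, 71 were tested, 27 of glycolysis and 44 of the HIF pathway, and none passed in any comparison. Between treatments 31 were above and 40 below 0, with a median of -0.02, and 3 had an unadjusted p under 0.05. The smallest belonged to Pdk1, the HIF-induced kinase that inhibits pyruvate dehydrogenase. Pdk1 ranged from 43.5 to 63.2 CPM (median 49.2) with DMSO and from 26.3 to 47.1 CPM (median 38.9) with 27HC. Only the DMSO tumours 1_4, 2_2 and 2_3 fell within the 27HC range. Its log2 fold change was -0.37 (SE 0.11, unadjusted p 0.00257, adjusted p 1 in edgeR's quasi-likelihood test), -0.40 at number 1 and -0.34 at number 2. Leaving out single tumours moved it between -0.43 and -0.32, and without the 5 low-GC libraries it was -0.34 (adjusted p 0.796 in the same test). Stc1, a secreted HIF target, was also lower (-0.39, SE 0.17, unadjusted p 0.0359 in the same test). Its groups overlapped more than those of Pdk1, at 41.71 to 83.85 CPM with DMSO and 26.5 to 70.77 CPM with 27HC. Pdk4, a kinase of the same family that is abundant in muscle, was at 1.92 (SE 0.76, unadjusted p 0.0198), which was 0.46 with the muscle score as covariate and -0.03 without the 5 low-GC libraries. Vegfa, the vessel growth factor and a classical HIF target, held 160 to 242 CPM with DMSO and 143 to 254 CPM with 27HC (-0.02, SE 0.12). Mt2, a metal-binding protein, was at 0.60 (SE 0.32).

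The smallest interaction p in these lists belonged to Eno2, an enolase of neurons and hypoxic cells (1.05, SE 0.33, unadjusted p 0.00441, adjusted p 0.911 in edgeR's quasi-likelihood test), and to Angptl4, a lipase inhibitor induced by HIF (1.04, SE 0.38). The log2 fold change of Eno2 was -0.57 at number 1 and 0.48 at number 2, the signs that most members had. The interaction of Dusp1 was -1.06 (SE 0.42) and that of Hmox1 1.34 (SE 0.65). Against the first number the smallest p belonged to genes of muscle metabolism, Pgam2 (-2.22, SE 0.55), Ppp1r3c (-2.14, SE 0.66), Slc2a4 (-1.77, SE 0.56) and Eno3 (-0.76, SE 0.26), beside the muscle levels given above. Their part in these values was not tested.

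Among the 14 libraries that do not stand apart, Bnip3 and Ero1l varied together. Pearson's r of their log2 CPM was 0.90 and Spearman's rho 0.87. The permutation p of r was 2e-05, or 0.00134 after Benjamini-Hochberg adjustment over the 67 pairs tested (each member with Pgk1 or Bnip3), and the adjusted permutation p of rho was 0.00938. The correlation was 0.95 and 0.86 within first numbers 1 and 2 (n = 7 each, given as values), 0.94 within DMSO and 0.88 within 27HC, and 0.82 without the 2 tumours farthest from the median of Bnip3. Over all 15628 other genes tested, Ero1l ranked first by r with Bnip3. Both genes were highest in 27HC 2_5 (158 and 399 CPM) and lowest, among these 14, in 27HC 1_4 (70.7 and 200 CPM). Their r with the GC content of the library was -0.33 and -0.22 over the same tumours.

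**Figure D5:**
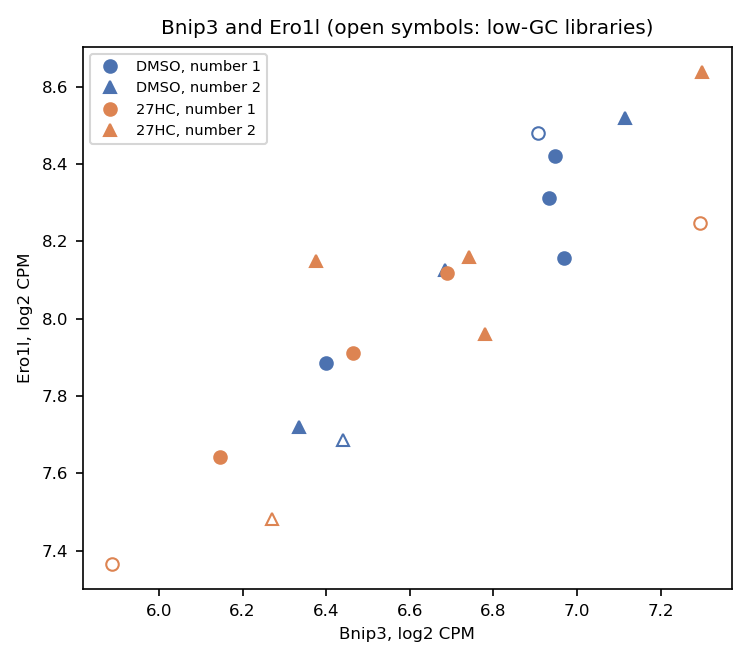
Ero1l against Bnip3, both in log2 CPM, 1 symbol per tumour: blue DMSO, orange 27HC, circles first title number 1, triangles number 2, open symbols the 5 low-GC libraries. The 14 filled symbols rise together (r = 0.90), with 27HC 2_5 at the upper right and 27HC 1_4 at the lower left of them.

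No other tested pair passed. Pairs without Pgk1 or Bnip3 were not tested, and some had an r as high, such as Gpi1 with Pkm (0.98) and Pfkl with Ndrg1 (0.90). Bnip3 with Ankrd37, a small ankyrin-repeat gene induced by HIF, had r = 0.69 (adjusted permutation p 0.136, and r = 0.66 without 2 tumours). Bnip3 with Slc2a1 had r = 0.68 (adjusted permutation p 0.136, and r = 0.44 without 2 tumours). Pgk1 with Ldha had r = 0.53 (adjusted permutation p 0.308), and Pgk1 with Eno1 0.07. The genes most like Pgk1 over the 14 tumours were no members: Psmd7, a proteasome subunit, and Zmynd19, each at 0.89. Pairs of enzymes had a median r of 0.71 over 91 pairs, from -0.39 to 0.98, but pairs within the whole glycolytic group only 0.22 over 190 pairs, of which 113 were above 0. Pairs of hypoxia targets had a median of 0.38 over 78 pairs, and pairs across the glycolytic and hypoxia target groups 0.27 over 260 pairs. These medians are descriptions over 14 tumours that share normalization and composition, with no p.

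Markers of the other cells of a tumour were set beside the treatment groups. All 18 skeletal muscle genes were above 0 with 27HC, with a median log2 fold change of 1.93. Their summed level ran from 13.3 to 1742 CPM with DMSO and 13.8 to 5812 CPM with 27HC, with only Pvalb at 0 in any tumour. With the muscle score as covariate 28 of 35 members were below 0. Endothelial genes were near 0 (median 0.02, 149.5 to 244.3 CPM summed in all tumours), and all 8 macrophage genes were below 0 (median -0.17, 1846 to 3324 CPM with DMSO and 1709 to 3465 CPM with 27HC). Of 8 neutrophil genes 6 were above 0 (median 0.85, 59.5 to 126 and 61.8 to 193 CPM). Salivary gland genes were at 6245 CPM in DMSO 1_5 and 938 CPM in 27HC 2_2, at 12.67 CPM in 27HC 2_3 and at 0.12 to 3.91 CPM in the other 16 tumours. The part of these cells in the levels of the 35 genes was not tested.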

How the data were processed

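RNA was measured in 19 tumours. The authors deposited 1 expected count per gene and tumour for 26796 genes, made from the reads by a procedure that no label describes. Tools listed in the submitters' processing notes, without roles, are edgeR, limma and kallisto 0.44.0, with the build GRCm38. Libraries were stranded poly(A) RNA, per the labels' protocols.

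Counts were rounded. edgeR 4.0.16 (R 4.3.3) fitted TMM-normalized counts by its quasi-likelihood test after filterByExpr, which kept 15629 genes and left out 11167. P-values were adjusted by Benjamini-Hochberg over all of them, with a threshold of 0.05. Fits were by treatment over all 19 tumours, by the 4 groups of treatment and first title number (one shared spread), and by treatment plus number. Log2 CPM use a prior count of 2. Gene symbols, lengths and GC content come from GENCODE M21 on GRCm38. Copies are genes with at least 95% identity over 300 bases (blastn 2.17.0). On simulated counts the fit recovered known changes that were larger than those of the members between treatments. Changes as small as those of the members were not simulated, and neither was a set of libraries that stands apart, such as the low-GC libraries here. Correlations use 14 libraries, in place of the 19 planned, since 5 stand apart, with 100000 permutations. The members and lists were chosen with earlier results of these data known. Named genes are the 6, 4 and 4 members with the smallest p for treatment, interaction and number, plus Slc2a1, Hk2, Pgk1, Ldha, Car9, Bnip3 and Hif1a, any member with an outlying tumour, and among the other genes Vegfa, Pdk1 and 4 per comparison. Alternatives were DESeq2 1.42.0, RLE size factors, other filters, a replicate block, the first number or muscle score as covariate, and leaving out each tumour. Fits without the low-GC libraries, with library GC as covariate, with copies summed, and correlations over 19 tumours were added after seeing the data. Tumours of the same group all differed by more than sampling noise (chi-square per degree of freedom of 39.5 or more).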

Additional observations from a re-analysis of the deposited data

Results flagged for a closer look

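Of 70 groups of tumours examined (each gene in 9 DMSO and in 10 27HC tumours), 5 had a highest tumour set off from the others by more than Dixon's 95% limit, and chance gives about 1 in 20. Ldha stood at 2655 CPM in DMSO 1_3, where the next DMSO tumour had 1697 CPM. Pfkfb3, which makes the activator of phosphofructokinase, stood at 108 CPM in 27HC 1_4, next 88.3 CPM. Bnip3l, a mitophagy receptor related to Bnip3, stood at 139.8 CPM in 27HC 1_5, a low-GC library, next 101.3 CPM. Adm stood at 5.158 CPM in 27HC 2_2, next 3.418 CPM, in a tumour with 938.4 CPM of summed salivary gland genes, whose part was not tested. P4ha1 stood at 265.6 CPM in 27HC 2_5, next 200.3 CPM, in the tumour that also held the highest Bnip3, Ero1l and Slc2a1.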

How the results depend on the processing

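No member passed the threshold in any comparison under any setting run. Genes called moved with DESeq2 only: 2 between treatments, 1 within number 1, 1 within number 2 and 39 between numbers, against 0 with edgeR. With all 19 tumours 24 correlated pairs passed, in place of 1 over 14. The median of the members kept its sign between treatments and within number 1 under every setting, as did that of the interaction (0.118 to 0.637). A filter at 1 log2 CPM moved the interaction median of all genes from -0.02 to -0.12.

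Signs changed for members near 0; the cause was not tested. The interaction of Pgk1 (0.02) was -0.025 with RLE factors and with DESeq2, -0.022 without a filter, -0.094 with the filter at 1 log2 CPM, -0.112 without the low-GC libraries and -0.142 with library GC as covariate. Number 2 against 1 was -0.038 for Slc2a1, -0.007 for Car9 and -0.061 for Bnip3 with the muscle score, -0.001 for Car9 without the low-GC libraries and -0.005 for Slc2a1 with library GC. Between treatments, without the low-GC libraries, Slc2a1 was 0.047 and Car9 0.121. Leaving out single tumours gave ranges between treatments of -0.2 to 0.054 (Slc2a1), -0.1 to 0.009 (Car9) and -0.199 to 0.052 (Hif1a). It gave -0.213 to 0.121 for the interaction of Pgk1, and between numbers -0.095 to 0.159 (Bnip3) and -0.004 to 0.298 (Hif1a).

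Deviations of same-numbered tumours correlated with r from -0.504 (number 1_3) to 0.869 (number 2_3). Both tumours numbered 1_5 and both numbered 2_3 are low-GC libraries, while of those numbered 1_3 only the 27HC tumour is. What a shared full number means is not stated and was not tested. With the full number as a replicate block 0 genes passed and 31 of 35 members were below 0, and Hif1a was 0.002. The depth of at least 28139419 counts leaves a count error small beside the spread between tumours, which limits these comparisons.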
